A study of Mus musculus with 3 samples.

Results

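The report covers 10 genes of the mouse colon that are read as targets of Wnt signaling or as marks of stem cells: Lgr5, Ascl2, Axin2, Smoc2, Znrf3, Rnf43, Nkd1, Tnfrsf19, Sox9 and Myc. They were picked by symbol from the 32285 genes of the feature lists, and each symbol was found once. The choice was made with earlier results of these data known, and the study reports lower Lgr5 and Axin2 by RT-PCR in IFN-γ-treated organoids. All 10 genes were followed in colon organoids by sc-RNAseq in 3 libraries, 1 untreated, 1 after 24 h of IFN-γ and 1 after 48 h of IFN-γ. IFN-γ is an inflammatory cytokine made mainly by T and NK cells. All organoids came from WT mice and grew in full medium, which supplies Wnt, R-spondin and other growth factors, so Wnt ligand from outside was present in every group. The organoid medium of the study also held EGF, Noggin and the compound CHIR, which was left out together with Wnt to induce differentiation. Dead cells were removed by a DAPI sort before loading. Each condition has 1 library, so there is no replicate check, and no p-value is given. All intervals are at 95% and cover counting error only.

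Wnt ligands bind Frizzled receptors with the co-receptors Lrp5 and Lrp6, which stops the destruction of β-catenin and lets it switch on genes together with TCF factors. R-spondin, which binds Lgr receptors, keeps the ubiquitin ligases Znrf3 and Rnf43 away from Frizzled and so raises the signal. In the colon crypt the signal is strongest at the base, where stem cells divide, and many of its target genes are themselves parts of the pathway or brakes on it.

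The study's filters (a minimum of 5000 UMIs and of 400 genes, and a maximum of 15% UMIs from mitochondria) left 1058 untreated, 917 24 h and 2934 48 h cells. The median depth was 33550, 68784 and 10772 UMIs per cell, and the libraries shared between 1 and 4 cell barcodes in pairs. The epithelial list was present in all libraries, with 9 of 9 genes detected and a summed level between 5683 and 8475 CPM (UMIs of a gene scaled to a library total of 1000000). The immune list (6 genes) summed to between 0.18 and 0.82 CPM with Ptprc at 0 in every library, and the stromal and endothelial list (6 genes) to between 0.39 and 1.27 CPM with Col1a1 at 0. All 10 genes of the IFN-γ response list were higher by 1.5-fold or more in both treated libraries, as the labels have it. Lists of differentiated cells moved with treatment as well, not all in 1 direction. The summed colonocyte list was 2536 CPM untreated, 1024 CPM at 24 h and 891 CPM at 48 h, and the goblet list was 2997, 999 and 696 CPM. The enteroendocrine list was 188, 267 and 77.8 CPM and the tuft list 2.21, 5.53 and 5.52 CPM. Of the 10 colonocyte genes, 8 were lower by 1.5-fold or more at 24 h, where 37.2% of all genes were. Krt20, a colonocyte marker of the study, was higher, at 21.6, 27.6 and 26.1 CPM. Summed levels in whole libraries cannot tell fewer cells of a type from less RNA per cell.

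At 24 h of IFN-γ, 8 of the 10 genes lay below their untreated level, and 7 did so by 1.5-fold or more (Lgr5, Axin2, Smoc2, Rnf43, Nkd1, Tnfrsf19 and Sox9). Of the 14230 genes with at least 50 UMIs in the pair of libraries, 37.2% were lower by that much, and their median log2 ratio was -0.38, against -0.74 for the 10 genes. Myc was the 1 gene higher by 1.5-fold or more, where 5.85% of all genes were. At 48 h the median of the 10 genes against untreated was 0.00, beside -0.14 for all genes: Lgr5 and Sox9 were lower by 1.5-fold or more (22.7% of all genes) and Znrf3 and Nkd1 higher (8.29%). From 24 h to 48 h the median was 0.80, beside 0.23 for all genes, with 6 of the 10 higher by 1.5-fold or more (25.5% of all genes) and 0 lower (4.62%). With TMM scaling, which moves every gene by 0.37, 0.14 and -0.23 on the log2 scale in these comparisons, 3 genes in place of 7 were lower by 1.5-fold or more at 24 h (Lgr5, Smoc2 and Rnf43). The shares of all genes above are without TMM, and none is given with it.

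**Figure D1:**
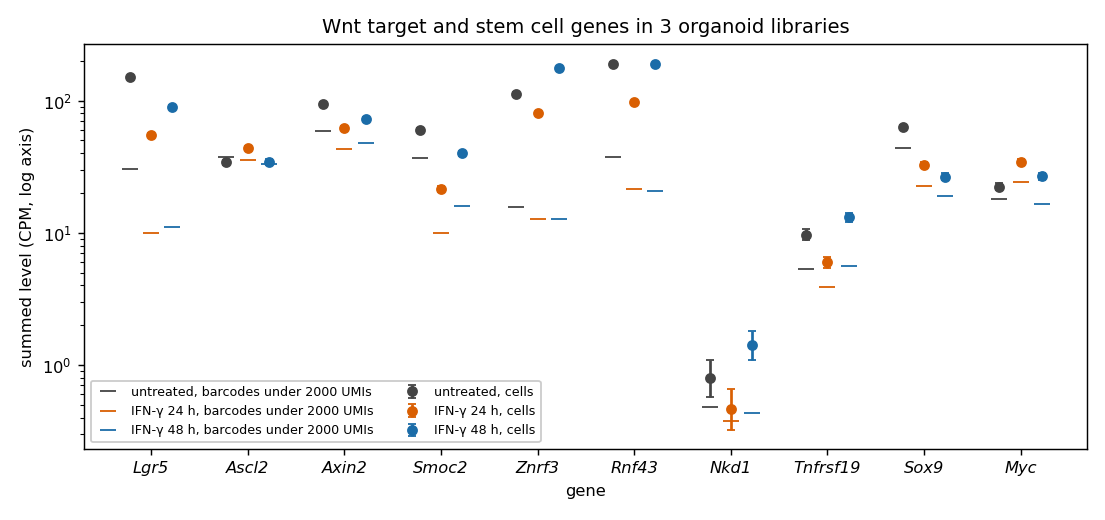
Summed level of each of the 10 genes (x axis) in CPM on a log axis, with points for the kept cells of the 3 libraries, bars for 95% Poisson intervals and dashes for barcodes under 2000 UMIs. Lgr5 and Smoc2 are lowest at 24 h and between the other libraries at 48 h, Znrf3 is highest at 48 h, and Sox9 is lowest at 48 h.

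Lgr5, the R-spondin receptor that marks crypt base stem cells (ENSMUSG00000020140, chromosome 10, 115450311 to 115587780 on the minus strand of GRCm38), stood at 151 CPM untreated (7533 UMIs), 55.2 CPM at 24 h (3924 UMIs) and 89.8 CPM at 48 h (4243 UMIs). The intervals of the 3 levels were 148 to 155, 53.5 to 57.0 and 87.1 to 92.6 CPM and did not overlap. The 24 h level was 36.5% of the untreated one, a log2 ratio of -1.45 (-1.51 to -1.40), and over all cells 36.0% of the fall had been regained at 48 h. Among all genes, 11.3% had a lower ratio at 24 h. In cells of 10000 to 40000 UMIs, described further on, Lgr5 regained none of it. Its ratio to untreated there was -1.21 at 24 h and -1.70 at 48 h.

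Smoc2, which codes for a secreted matrix protein and is another marker of Lgr5+ stem cells (ENSMUSG00000023886, chromosome 17), had nearly the same profile, with 59.7 CPM untreated, 21.4 CPM at 24 h and 40.0 CPM at 48 h. Its log2 ratio was -1.48 (-1.57 to -1.39) at 24 h, and 48.6% of the fall had been regained at 48 h. Ascl2, the transcription factor that sets stem cell identity in the crypt (ENSMUSG00000009248, chromosome 7), went another way, with 34.1 CPM untreated, 43.9 CPM at 24 h and 34.2 CPM at 48 h. It was higher at 24 h by 0.36 (0.28 to 0.45) on the log2 scale and differed from untreated by 0.01 (-0.09 to 0.10) at 48 h. Thus over all cells the 3 stem cell markers did not share a direction at 24 h. With TMM scaling Lgr5 and Smoc2 stood at -1.09 and -1.11 and Ascl2 at 0.73. In cell classes described further on, Ascl2 at 24 h stood at 0.00 (-0.10 to 0.11) in Malat1-low and 0.18 (-0.02 to 0.37) in Malat1-high cells. It was 0.14 (0.05 to 0.24) in ribosomal-high and 0.30 (-0.06 to 0.65) in ribosomal-low cells. Cycling cells gave 0.16 (0.07 to 0.25), non-cycling cells 0.07 (-0.35 to 0.47) and cells of 10000 to 40000 UMIs 0.54. Ascl2 is the one of the 10 genes whose untreated level in barcodes under 2000 UMIs, 37.2 CPM, exceeded that in cells; for Lgr5 that value was 30.4 CPM.

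The brakes on the pathway form the next group, and over all cells they separated at 48 h. Axin2, the scaffold of the β-catenin destruction complex and a common readout of Wnt activity (ENSMUSG00000000142, chromosome 11), stood at 94.7 CPM untreated, 62.3 CPM at 24 h and 72.2 CPM at 48 h, and regained 30.8% of its fall. Its 24 h ratio of -0.60 (-0.66 to -0.54) lies just past the 1.5-fold line and was -0.24 with TMM, and its ratio from 24 h to 48 h of 0.21 (0.15 to 0.28) became -0.01. That step was -0.45 in cells of 10000 to 40000 UMIs, described further on.

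Rnf43, a membrane ubiquitin ligase that removes Frizzled (ENSMUSG00000034177, chromosome 11), stood at 191 CPM untreated, 97.1 CPM at 24 h and 190 CPM at 48 h. It was lower at 24 h by a log2 ratio of -0.97 (-1.02 to -0.93) and had regained 99.5% of the fall at 48 h in all cells, while in cells of 10000 to 40000 UMIs, described further on, it stood at -1.02 against untreated at 48 h. Its paralog Znrf3 (ENSMUSG00000041961, chromosome 11) stood at 113, 80.1 and 176 CPM. The ratio of Znrf3 at 24 h was -0.49 (-0.55 to -0.44), close to the median of all genes and -0.12 with TMM, and at 48 h it lay above untreated by 0.64 (0.60 to 0.69). Nkd1, a Dishevelled-binding inhibitor (ENSMUSG00000031661, chromosome 8), was scarce, with 40, 33 and 67 UMIs, or 0.80, 0.46 and 1.42 CPM, and its 24 h ratio of -0.79 has the wide interval of -1.50 to -0.09. Over all cells at 48 h Rnf43, Znrf3 and Nkd1 were at 99.7%, 156% and 177% of their untreated level, while Lgr5, Smoc2 and Axin2 were at 59.4%, 67.0% and 76.3%. In the cells of 10000 to 40000 UMIs, Znrf3 and Nkd1 stood at log2 ratios of -0.47 and 0.00 against untreated at 48 h. Axin2, Lgr5 and Smoc2 stood at -0.86, -1.70 and -1.67 there.

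Tnfrsf19 (Troy), a receptor of the TNF family found on Lgr5+ cells (ENSMUSG00000060548, chromosome 14), stood at 9.70 CPM untreated, 6.01 CPM at 24 h and 13.1 CPM at 48 h. It was lower at 24 h by a log2 ratio of -0.69 (-0.88 to -0.50) and above untreated at 48 h by 0.43 (0.26 to 0.60). Sox9, a transcription factor of crypt base and progenitor cells (ENSMUSG00000000567, chromosome 11), stood at 62.8, 32.8 and 26.6 CPM. Its ratio to untreated was -0.94 (-1.02 to -0.86) at 24 h and -1.24 (-1.33 to -1.14) at 48 h, so over all cells Sox9 was the one gene of the 8 lower at 24 h that was lower still at 48 h. In cells of 10000 to 40000 UMIs Sox9 stood at -1.01 and -0.85 against untreated and at 0.16 from 24 h to 48 h. Myc, the growth regulator (ENSMUSG00000022346, chromosome 15), stood at 22.4, 34.5 and 26.7 CPM and was higher than untreated by 0.62 (0.52 to 0.73) at 24 h and 0.25 (0.14 to 0.37) at 48 h. Ascl2 and Myc, the pair higher at 24 h, came down at 48 h by log2 ratios of -0.36 and -0.37.

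**Figure D2:**
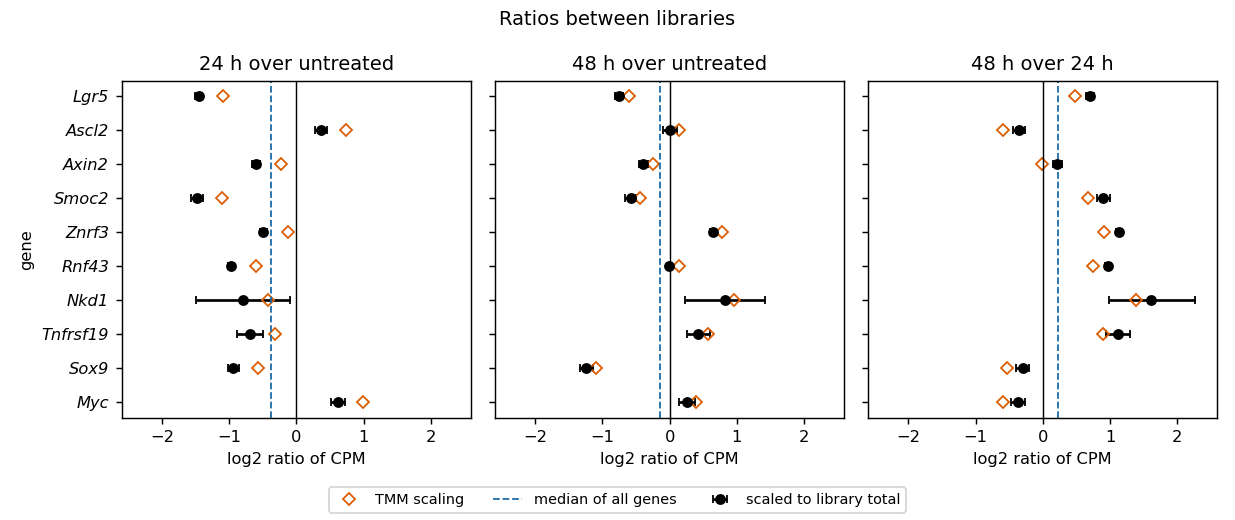
Log2 ratio of each gene in 3 comparisons, scaled to the library total (filled points with 95% intervals) or by TMM (open diamonds), with the median of all genes as a dashed line. At 24 h Lgr5 and Smoc2 lie farthest to the left, at -1.45 and -1.48, and at 48 h Sox9 does, at -1.24.

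Promoter sequence of 300 bases (250 before and 50 after the start) was at hand from RefSeq on GRCm38.p6 for 5 of the 10 genes, in 7 windows, and was searched on both strands for the TCF/LEF motif. Its letters CTTTGAT lie in 3.73% of 32851 promoters, and the shorter forms CTTTGA and CTTTG, which overlap it, in 16.0% and 53.9%. Each of the 3 was found in 1 of the 7 windows, in each case the window at the downstream start of Tnfrsf19, which is shown because it holds the match. The stretch runs 5′ to 3′ on the minus strand, with the match in capitals (ATCAAAG reads CTTTGAT on the other strand).
Tnfrsf19, downstream start, chr14:61038153-61038219: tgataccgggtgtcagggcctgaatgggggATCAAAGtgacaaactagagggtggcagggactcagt
None of the 3 was found in the windows of Axin2, Ascl2, Nkd1 and Rnf43. A match here is a string of letters, and binding was not measured.

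Cycling cells were those with at least 30 of 5000 UMIs from 96 S and G2/M genes. They made up 69.0% of untreated, 87.5% of 24 h and 86.3% of 48 h cells, which left 328, 115 and 401 non-cycling cells. This is a range of a score and not a cell type: 95 untreated, 46 24 h and 225 48 h cells lay within 20% of the threshold. The score counts RNA, and cell division was not measured here. By Ki67 staining and EdU labeling the study reports less proliferation in IFN-γ-treated organoids, with more of the arrest marker p21. The study also reports that a subset of proliferative markers rose. In untreated organoids the summed colonocyte list was 902 CPM in cycling and 7162 CPM in non-cycling cells.

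In untreated organoids Lgr5 was 180 CPM in cycling and 69.1 CPM in non-cycling cells, a log2 ratio of 1.38 (1.28 to 1.49). Ascl2 had a ratio of 1.69 (1.45 to 1.92) and Smoc2 one of 1.25 (1.09 to 1.41), all 3 above that of over 93% of genes, whose median was 0.06. Axin2, Znrf3 and Tnfrsf19 followed at 0.85, 0.90 and 0.77, Rnf43 and Myc at 0.48 and 0.44, and Sox9 at 0.28. Nkd1 stood at -0.28, with an interval of -1.30 to 0.83 that spans 0.

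The 24 h pattern was present in both classes. Lgr5 was lower by a log2 ratio of -1.62 (-1.68 to -1.56) in cycling and -2.30 (-2.65 to -1.96) in non-cycling cells. Smoc2 stood at -1.61 (-1.71 to -1.52) and -3.43 (-4.28 to -2.69), Rnf43 at -1.05 and -1.15 and Sox9 at -0.97 and -1.21. The 115 non-cycling cells at 24 h held only 77 Lgr5 and 15 Smoc2 UMIs. As a mean over cells, Lgr5 stood at -1.67 in cycling and -1.63 in non-cycling cells, so its larger non-cycling fall was absent there. Smoc2 kept a larger fall in non-cycling cells as a mean over cells, at -3.40. The median of the 10 genes was -0.78 in cycling cells, where that of all genes was -0.38, and -1.18 in non-cycling cells, where it was -0.22. Axin2 stood at -0.77 (-0.83 to -0.70) in cycling and -0.14 (-0.34 to 0.05) in non-cycling cells, where the interval spans 0. At 48 h Znrf3 was above untreated in both, by 0.55 (0.50 to 0.60) and 0.62 (0.48 to 0.77), and Lgr5 below it in both, at -0.87 (-0.92 to -0.81) and -0.98 (-1.20 to -0.77). Ascl2 at 48 h was at -0.17 (-0.27 to -0.07) in cycling and 0.45 (0.09 to 0.80) in non-cycling cells. The difference between the classes was not tested, and the classes differed in their colonocyte and goblet list levels. The summed enteroendocrine list in non-cycling cells was 665 CPM untreated, 3413 CPM in the 115 cells at 24 h and 508 CPM at 48 h, and its part in the non-cycling ratios was not tested.

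**Figure D3:**
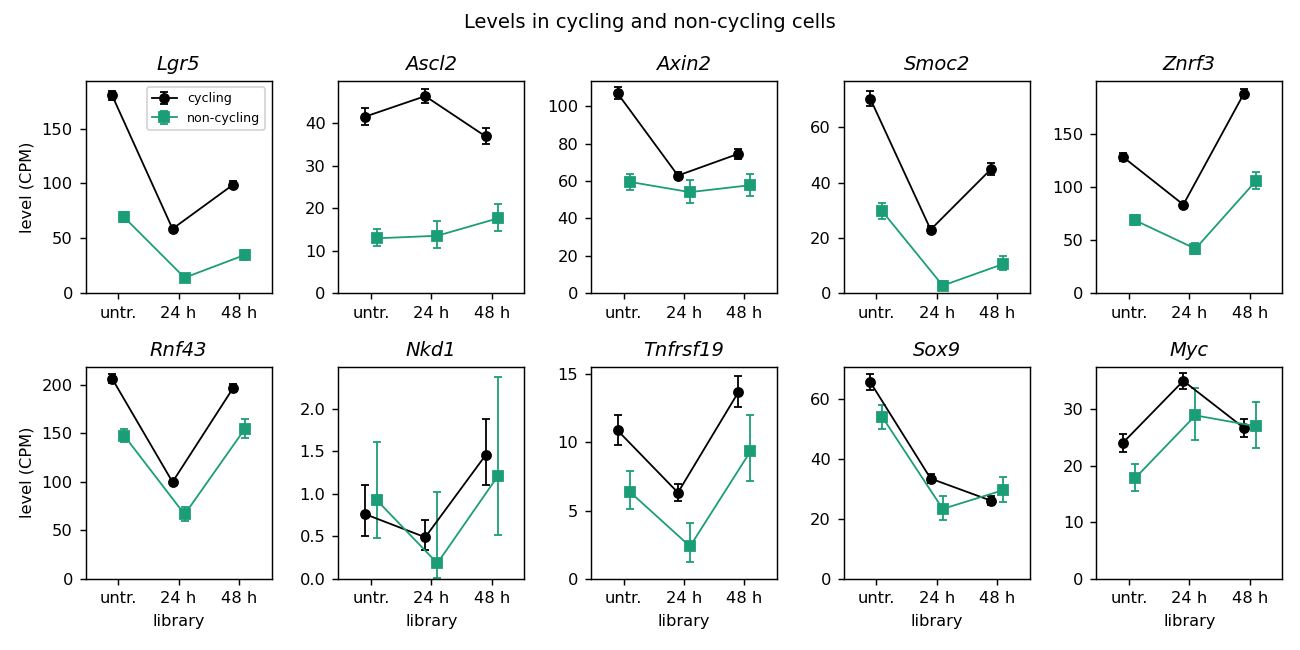
Level of each of the 10 genes in CPM (y axis from 0) in cycling cells (black circles) and non-cycling cells (green squares) of the 3 libraries (x axis), with 95% Poisson intervals. Lgr5, Ascl2, Smoc2 and Znrf3 are higher in cycling cells in each library, and Lgr5 and Smoc2 are lowest at 24 h in both classes.

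The step from 24 h to 48 h depended on which cells were set side by side. Within each library, cells with few UMIs had more Lgr5 than cells with many: in cells of 5000 to 10000 UMIs it stood at 313 CPM untreated, 153 CPM at 24 h and 138 CPM at 48 h, and in cells of 40000 to 80000 UMIs at 147, 48.8 and 85.9 CPM. Malat1, a nuclear RNA, moved the same way, from 23524 to 7832 CPM untreated, 14568 to 2781 CPM at 24 h and 8956 to 2910 CPM at 48 h between these depths. In cells of 10000 to 40000 UMIs (415, 222 and 1381 cells), an alternative chosen after seeing the data, Lgr5 was lower at 48 h than at 24 h by a log2 ratio of -0.49, Znrf3 by -0.53, Rnf43 by -0.54 and Axin2 by -0.45. There the median of the 10 genes for 48 h over 24 h was -0.15 and 0 genes were higher by 1.5-fold or more, where all cells gave 0.80 and 6. No share over all genes is given for that range. Against untreated, the median at 48 h was -0.74 there, with 6 genes lower, and Znrf3 stood at -0.47 in place of 0.64 and Tnfrsf19 at -0.62 in place of 0.43. Lgr5 and Smoc2 at 24 h were lower than untreated there too, at -1.21 and -2.17. Cells of one depth were not of one kind across libraries, since Malat1 in cells of 10000 to 20000 UMIs was 21444 CPM untreated, 14566 CPM at 24 h and 5584 CPM at 48 h. The part of depth in the step from 24 h to 48 h was not tested.

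**Figure D4:**
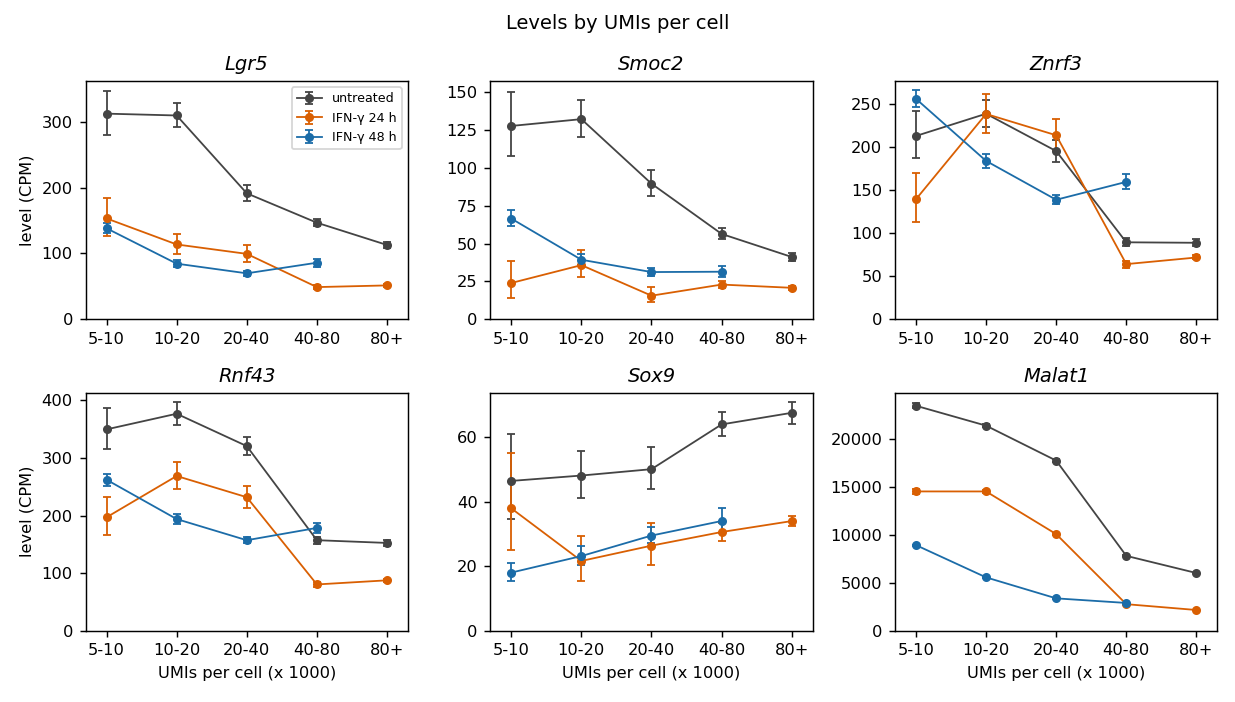
Level in CPM (y axis from 0) of 5 of the genes and of Malat1 in cells grouped by UMIs per cell (x axis, in units of 1000), with 95% Poisson intervals, for groups of at least 50 cells. Lgr5 at 48 h lies below 24 h in the 3 shallower groups and above it at 40000 to 80000 UMIs, where it was 85.9 and 48.8 CPM, and untreated cells are highest in each group.

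A pair of further splits, also added after seeing the data, sorted cells by content rather than depth, at 17.9% of UMIs from ribosomal protein genes and at 22 Malat1 UMIs per 5000. Ribosomal-high cells were 43.3% of untreated, 72.2% of 24 h and 63.4% of 48 h cells, and Malat1-high cells 72.2%, 33.8% and 55.7%, so the mix of the classes differed between libraries. In all 4 classes Lgr5 was lower at 24 h, by log2 ratios between -1.19 and -0.99, and higher at 48 h than at 24 h, by 0.34 to 0.57. Smoc2 had ratios between -2.03 and -1.01 at 24 h and between 0.49 and 1.59 for the step to 48 h, and Sox9 at 48 h lay between -1.39 and -1.25 against untreated. Znrf3 at 48 h was above untreated in the 4 classes, by 0.57 to 0.91. Its 24 h ratio changed sign, from -0.28 (-0.36 to -0.20) in Malat1-low and -0.12 (-0.19 to -0.05) in ribosomal-high cells to 0.08 (-0.01 to 0.16) in Malat1-high and 0.17 (0.07 to 0.28) in ribosomal-low cells. Axin2 from 24 h to 48 h stood at 0.20 in ribosomal-high and -0.21 in ribosomal-low cells. The splits by content and the depth range thus gave opposite directions for Lgr5, Znrf3, Rnf43 and Sox9 from 24 h to 48 h, with Sox9 between -0.39 and -0.19 in the 4 classes and at 0.16 in the depth range.

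Within untreated cells the genes differed by ribosomal class. Lgr5 was 241 CPM in ribosomal-low and 114 CPM in ribosomal-high cells, a log2 ratio of 1.08 (1.01 to 1.14), and Znrf3, Rnf43, Smoc2 and Tnfrsf19 had ratios between 1.24 and 1.53. Ascl2, Sox9 and Myc were lower in ribosomal-low cells, with ratios of -1.28, -0.48 and -0.57, where the median gene stood at 0.53. The enteroendocrine list summed to 617 CPM in ribosomal-low and 11.2 CPM in ribosomal-high untreated cells, and mitochondrial UMIs were 7.64% and 3.09%.

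At a depth of 5000 UMIs drawn from every cell, a Lgr5 UMI was seen in 391 of 1058 untreated cells (37.0%, 34.0% to 40.0%, Clopper-Pearson), 182 of 917 24 h cells (19.8%, 17.3% to 22.6%) and 875 of 2934 48 h cells (29.8%, 28.2% to 31.5%). Without thinning the shares were 57.2%, 51.6% and 46.3%, in the order of neither level nor depth. In the 10% of cells of a library highest on the colonocyte list, the thinned share was 2.83% (3 of 106 cells, 0.59% to 8.05%) untreated. It was 4.35% (4 of 92, 1.20% to 10.8%) at 24 h and 9.22% (27 of 293, 6.16% to 13.1%) at 48 h, and these intervals overlap. This top was set within each library, and its cells were not alike. Their colonocyte list summed to 16355 CPM untreated, 3593 CPM at 24 h and 3844 CPM at 48 h, and 11.3%, 59.8% and 47.1% of them were cycling. Lgr5 summed over them was 11.2, 15.6 and 27.7 CPM. Its log2 ratio to untreated there was 0.48 (0.02 to 0.94) at 24 h and 1.31 (0.87 to 1.76) at 48 h. The median of the 10 genes there was 0.79 and 1.32, beside -0.11 and 0.07 for all genes. The part of the mix of cells in these ratios was not tested. A Znrf3 UMI was seen in 45.7%, 35.4% and 58.2% of thinned cells and a Sox9 UMI in 20.1%, 12.8% and 9.95%, the order of their summed levels. At 5000 UMIs per cell, the median cell had UMIs of 2 of the 10 genes in each library. Of these thinned cells, 14.0%, 3.82% and 7.84% had 5 or more. Without thinning, a Rnf43 UMI was seen in 90.5%, 87.6% and 80.8% of cells and an Axin2 UMI in 81.1%, 82.7% and 57.0%.

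Cells with a Lgr5 UMI were then set beside cells without one, at 5000 UMIs each. Smoc2 stood at 184 CPM with and 27.6 CPM without Lgr5 in untreated cells, a log2 ratio of 2.73 (2.40 to 3.08), and at 1.87 (1.33 to 2.41) at 24 h and 2.04 (1.82 to 2.26) at 48 h. Axin2, Znrf3 and Rnf43 were higher in cells with Lgr5 in each library, with ratios from 0.47 to 1.02, 0.59 to 1.31 and 0.63 to 1.10. Over all cells Ascl2, Sox9 and Myc had intervals that span 0 in each library, and Tnfrsf19 stood at 1.16 untreated, 0.09 (-1.69 to 1.56) at 24 h and 0.76 at 48 h. The contrast in Smoc2, Axin2, Znrf3 and Rnf43 was smaller at 48 h than untreated, with intervals that do not overlap. It was 2.04, 0.47, 0.59 and 0.63 against 2.73, 1.02, 0.95 and 1.10. A smaller ratio at 48 h was also seen in the genes named below as most like Lgr5, except Lpcat2, at 0.92 in both libraries. Those genes were ranked on these same ratios, so they cannot show how common a smaller ratio at 48 h is. No share over all genes is given. Cells with Lgr5 were more often cycling (84.4% against 60.0% in untreated). They were also shallower before thinning, with median UMIs of 23207 against 42528 untreated, 54941 against 69999 at 24 h and 8927 against 12218 at 48 h. Among ribosomal-high cells they were deeper untreated (75693 against 64100) and at 24 h (91949 against 82270), and shallower at 48 h (15106 against 17945.5). The part of depth in these ratios was not tested. Within cycling cells the intervals of untreated and 48 h overlapped for Axin2, at 0.78 (0.51 to 1.06) and 0.41 (0.22 to 0.59), and for Znrf3, at 0.70 (0.47 to 0.92) and 0.49 (0.38 to 0.60). They did not for Rnf43, at 0.92 (0.74 to 1.10) and 0.62 (0.51 to 0.72), or for Smoc2, at 2.81 (2.39 to 3.25) and 1.87 (1.65 to 2.10). In ribosomal-high cells those of Znrf3 overlapped too, at 1.04 (0.57 to 1.51) and 0.45 (0.29 to 0.61). Smoc2 stood at 3.02, 1.41 and 1.85 in ribosomal-high cells. Ascl2 had intervals clear of 0 there at 24 h, at 0.65 (0.06 to 1.21), and at 48 h, at 0.48 (0.13 to 0.82), and so had Myc at 24 h, at 0.79 (0.12 to 1.43).

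**Figure D5:**
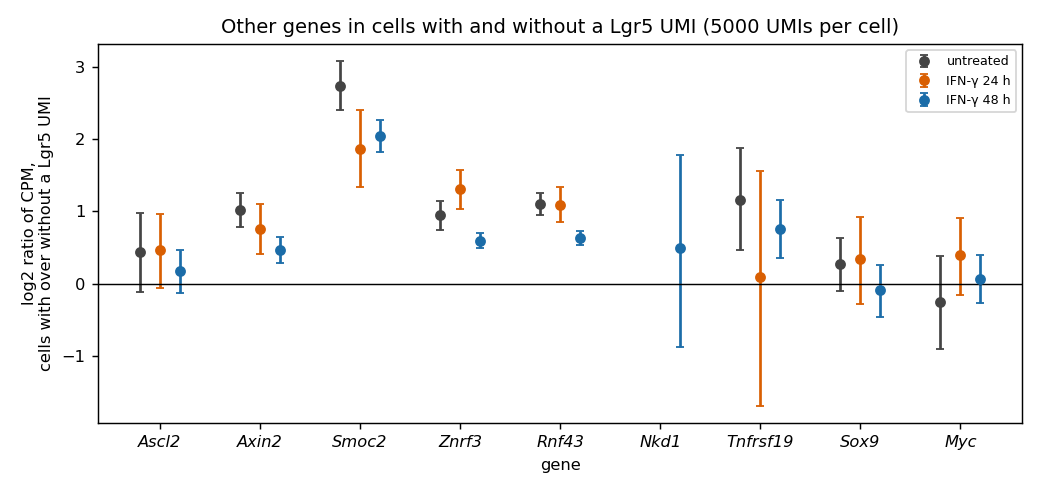
Log2 ratio of CPM between cells with and without a Lgr5 UMI (y axis) for the 9 other genes in the 3 libraries, each cell thinned to 5000 UMIs, with 95% intervals, where both sides had 3 UMIs or more. Smoc2 has the highest ratio in each library, from 1.87 to 2.73, and the intervals of Ascl2, Sox9 and Myc span 0.

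Of 6199 genes at 20 CPM or more in each library, counted over the UMIs thinned to 5000 per cell (so that each cell weighs the same, unlike in the levels over whole libraries), Smoc2 was the most like Lgr5 by this ratio, taken as the lowest of the 3 libraries (1.87). Nav2, Sorcs2, Lpcat2, Stard13, Cachd1, Clca3b, Lrig1, Tiam1 and Gm36975 followed, with lowest ratios between 0.79 and 1.01. Rnf43 ranked 32, Znrf3 40, Axin2 156, Ascl2 1388 and Sox9 3388. The ranking did not match cells on their depth before thinning. Lrig1, a brake on EGF receptors in stem cells, stood at 229 CPM untreated, 88.1 CPM at 24 h and 139 CPM at 48 h. Lpcat2, an enzyme of phospholipid synthesis, went against Lgr5 between libraries, with 14.1, 57.7 and 81.7 CPM.

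Other genes of the pathway were described from lists. Of the ligands and the genes that release them, 5 of 6 with enough UMIs were lower by 1.5-fold or more at 24 h and 0 higher. Wls, the carrier that brings Wnt to the cell surface, stood at 138, 68.6 and 96.2 CPM. Of the receptors, 9 of 14 were lower at 24 h and 0 higher (median -0.73 on the log2 scale), among them the co-receptor Lrp5 at 34.7, 19.2 and 36.6 CPM and Ror2 at 22.9, 8.23 and 19.2 CPM. Of the transducers, 7 of 12 were lower, with β-catenin (Ctnnb1) at 186, 118 and 123 CPM and Apc at 129, 75.2 and 114 CPM. These counts stand beside 37.2% of all genes. With TMM, for which no share of all genes is given, 2 ligand list genes, 4 receptors and 0 transducers were lower by 1.5-fold or more. There 1 receptor was higher, which was Fzd9.

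Among the TCF factors and co-activators 2 of 7 were lower by 1.5-fold or more at 24 h, beside 37.2% of all genes, and these were lower by a wide margin. Tcf7l1, a TCF that acts largely as a repressor, stood at 6.49, 0.63 and 0.78 CPM, with log2 ratios of -3.36 (-3.84 to -2.90) at 24 h and -3.05 (-3.58 to -2.56) at 48 h. Lef1, which is itself a Wnt target, stood at 4.08, 0.98 and 2.18 CPM. Of the inhibitors, 2 of 4 were lower and 1 higher (0 and 1 with TMM), beside 37.2% and 5.85% of all genes without TMM. Among the lower ones Kremen1, a receptor for Dickkopf proteins, stood at 8.31, 4.57 and 7.96 CPM. The higher one was Sfrp1, a secreted decoy for Wnt named after its values were seen, at 0.06, 2.14 and 3.51 CPM.

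Of 15 other Wnt target and crypt base genes, 7 were lower and 1 higher at 24 h (4 and 1 with TMM), beside 37.2% and 5.85% of all genes without TMM. From 24 h to 48 h, 9 were higher by 1.5-fold or more (25.5% of all genes). Slc12a2, an ion carrier of the crypt base, stood at 537, 215 and 369 CPM, Prom1 at 138, 54.6 and 93.5 CPM, Rgmb at 36.5, 13.4 and 21.8 CPM and Ephb2, the receptor that keeps cells at the crypt base, at 195, 126 and 227 CPM. Slc12a2, Prom1, Rgmb and Lrig1 thus had the order of Lgr5 over all cells, with the 48 h level between those of 24 h and untreated. The rest of the 7 did not. Ephb2 and Tert, at 4.76, 3.17 and 6.99 CPM, were highest at 48 h. Sp5 stood at 10.0, 6.37 and 5.88 CPM, with a log2 ratio from 24 h to 48 h of -0.12 (-0.34 to 0.10). Ccnd1, a cyclin that starts the cell cycle, was the gene higher at 24 h, at 272, 437 and 371 CPM, which is the order of Myc. At 48 h against untreated, the 6 Wnt lists had 13 of 57 tested genes lower (22.8%) and 4 higher (7.02%), beside 22.7% and 8.29% of all genes.

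Several of the 10 loci overlap other genes. The reads of a 3' library keep strand, and the antisense partners of Lgr5, Axin2, Smoc2 and Tnfrsf19 held between 3 and 280 UMIs each. Rnf43 has a sense transcript in an intron, 1110028F11Rik, with 238, 322 and 283 UMIs beside 9504, 6901 and 8992 for Rnf43, and reads from the shared stretch cannot be told apart.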

How the data were processed

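Libraries were made with 3' v3 chemistry (10x Genomics). The authors mapped reads to mm10 with Cell Ranger 6.0.1 and deposited raw UMI counts per gene and barcode, including background barcodes. The count tables hold whole numbers without normalization, the annotation release is not given in the sources used here, and 0 per-sample columns were left out. No cluster or doublet step was run, so doublets stayed in, and the main results had no free RNA step. In a variant with 10% background profile subtracted, the median log2 ratio of the 10 genes was -0.77 at 24 h against untreated. It was 0.02 at 48 h against untreated and 0.81 from 24 h to 48 h.

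Cells passed the study's filters (above). Counts were summed over cells and scaled to CPM. Log2 ratios carry exact conditional binomial intervals, levels exact Poisson intervals and shares Clopper-Pearson intervals at 95%. UMIs count molecules once, and intervals cover counting error only. Precision follows the depth of 49801935, 71077817 and 47243500 UMIs over the kept cells. A fold of 1.5 was counted for genes with at least 50 UMIs over a pair of libraries. No test across samples was possible with 1 library per group, so edgeR 4.0.16 served for TMM factors alone. Shares and cell classes used cells thinned at random to 5000 UMIs, except the ribosomal classes, which were set on all UMIs of a cell. The cycling threshold is Otsu's, over 42 S and 54 G2/M genes. All 10 genes are named. Other Wnt genes could be named past 1.5-fold at 24 h with 200 UMIs over 2 libraries, genes like Lgr5 as the 10 with the highest ratio, and Fzd9, Sfrp1 and Malat1 were named after their values were seen. Gene positions are from GENCODE vM21 on GRCm38, the build of mm10. The genes and lists were chosen with earlier results of these data known. Scripts were tested on simulated data, with Python 3.11.15, numpy 2.4.6, scipy 1.17.1 and R 4.3.3. A search for 1 further promoter motif is not reported here.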

Additional observations from a re-analysis of the deposited data

Results flagged for a closer look

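Ascl2 at 48 h against untreated was lower in cycling cells, at -0.17 on the log2 scale, and higher in non-cycling cells, at 0.45, with both intervals clear of 0. It was flagged because the classes moved in opposite directions. Sox9 from 24 h to 48 h was likewise lower in cycling cells, at -0.36, and higher in non-cycling cells, at 0.34. Neither difference was tested, since each condition has 1 library. With TMM scaling Ascl2 stood at -0.03 and 0.59 and Sox9 at -0.59 and 0.12.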

How the results depend on the processing

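The median log2 ratio of the 10 genes at 24 h against untreated was -0.74. It kept its sign, at -0.37 with TMM, -0.35 with median-of-ratios scaling, -0.89 as a mean over cells and -0.62 at no more than 10% mitochondrial UMIs. It was -0.51 at 10000 to 40000 UMIs, -0.44 in ribosomal-high, -0.52 in Malat1-high and -0.64 in Malat1-low cells. In the 10% of cells highest on the goblet list the median was -1.03. In the 10% highest on the colonocyte list, which were not alike between libraries, the sign turned, at 0.79. The count of genes lower by 1.5-fold or more at 24 h, 7 in all cells, was 3 with either scaling and 4 at 10000 to 40000 UMIs, in ribosomal-high and in Malat1-high cells. Of all genes, 24.0% in ribosomal-high and 20.4% in Malat1-high cells were lower by that much at 24 h. No such share is given for the scalings or the depth range. At 48 h against untreated the median of 0.00 became 0.14 with TMM, 0.15 with median-of-ratios, -0.0922 as a mean over cells, 0.11 in Malat1-high cells, -0.13 in Malat1-low cells and -0.74 at 10000 to 40000 UMIs, where 6 genes were lower in place of 2. From 24 h to 48 h the median of 0.80 was 0.57 with TMM, 0.56 with median-of-ratios, 0.58 as a mean over cells, 0.67 and 0.58 at minima of 2000 and 10000 UMIs and 0.68 at no more than 10% mitochondrial UMIs. It was 0.51 in ribosomal-high, 0.35 in ribosomal-low, 0.47 in Malat1-high and 0.53 in Malat1-low cells. It turned to -0.15 at 10000 to 40000 UMIs, with 0 genes higher in place of 6, and 3 genes were higher in ribosomal-low cells (4.12% of all genes there). At that depth Lgr5 (-0.49), Axin2 (-0.45), Znrf3 (-0.53), Rnf43 (-0.54), Ascl2 (0.25) and Sox9 (0.16) turned direction from 24 h to 48 h, as did Znrf3 (-0.47) and Tnfrsf19 (-0.62) at 48 h and Znrf3 (0.06) at 24 h against untreated. The cause was not tested. The depth range and the ribosomal and Malat1 splits were chosen after seeing the data, as was the tolerance for calling a median moved, which was made narrower. That tolerance is the median half-width of the intervals of the 10 genes, and 1.5 times for counts. Leaving out the deepest 5% of cells changed the count lower from 7 to 6 at 24 h and from 2 to 3 at 48 h against untreated. No share of all genes is given for that set of cells. All 6 counts of all genes past 1.5-fold moved when genes with 1 UMI entered. Of the ratios of single genes in all cells, 168 stayed within their interval and 218 moved out of it. A further 4 were labeled reversed, a label that does not cover every change of sign, since more are named above. In the cycling and non-cycling classes 236 stayed and 60 moved, and 4 of Nkd1 were not given because the 24 h cells left held 0 UMIs. Of the ratios in cells with and without a Lgr5 UMI, 23 stayed and 18 moved, and 11 were not given because a side held fewer than 3 UMIs. Of these, 8 were in non-cycling cells, where the 24 h library had 7 cells with a Lgr5 UMI, so that setting hardly bears on 24 h. Shares of cells with a UMI moved in 59 of 60 cases with another thinning depth or none. No paired analysis was possible because each condition has 1 library, and leaving out a replicate was not possible either. Depth limits Nkd1, with at most 67 UMIs in a library.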
